A study of Mus musculus with 2 samples.

Results

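The genes described here are 10 members of the Nodal and activin branch of TGF-beta signalling in mouse embryoid bodies: the ligands Nodal and Gdf3, the secreted inhibitors Lefty1, Lefty2 and Fst, the receptors Acvr1b and Acvr2b, the signal transducers Smad2 and Smad3, and their DNA-binding partner Foxh1. Each was read from the array's probe sets whose platform annotation gives 1 gene symbol, equal to the member. That rule found 21 probe sets for the 10 genes, among 18193 genes named in this way. The FGF10 sample was embryoid bodies grown from CGR8 cells, a line of mouse embryonic stem cells (strain 129), put in differentiation medium with recombinant FGF10 at 100 ng/ml. The control sample was embryoid bodies of the same line in differentiation medium with no added factor. Both were made by the hanging-drop method from stem cells maintained without feeder cells, in serum and leukemia inhibitory factor. The labels place both samples at day 2, while the design text has embryoid bodies of 2 days treated and RNA taken 24 h later, so the age at harvest is uncertain by that difference. The number of embryoid bodies behind each RNA is not given in the sources used here.

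Nodal and activin are secreted proteins that bind paired receptor kinases of type I and type II. The activated type I receptor phosphorylates Smad2 and Smad3, which enter the nucleus with Smad4 and act with partners such as Foxh1 on target genes. In the mouse epiblast this pathway is known for its part in maintaining the epiblast and in forming the primitive streak, mesoderm and definitive endoderm. Nodal induces its own gene and those of its Lefty inhibitors, which gives the pathway both positive and negative feedback.

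There was 1 array per group, so no difference here has a replicate check or a p-value, and each ratio describes this pair of arrays. Values are MAS5 signal, a brightness per probe set on a linear scale, and each ratio is log2 of FGF10 over control after removing the median ratio of the array pair (0.03). A probe set was kept if its mean signal over both arrays was at least 76.35, the median of the array, and the brightest kept probe set stood for its gene. This gave 11122 measured genes. Since signal also depends on the probes, levels are compared between arrays and not between genes. As a measure of error within these arrays, the technical SD of a log2 ratio, taken from pairs of probe sets of 1 gene, was 0.374 in the dimmest of 5 signal bins with equal numbers of genes and 0.119 in the brightest. Of 8 epiblast markers all were measured and 7 were within 1.5-fold, with summed signals of 60191.9 on the FGF10 array and 64451.7 on the control array. Of 7 fibroblast feeder markers 5 were under the filter, among them Col1a1 and Postn, and the 2 measured ones, Thy1 (log2 ratio -0.61) and Col1a2 (-0.22), summed to 368.8 on the FGF10 array and 506.2 on the control array. All 10 visceral endoderm markers were measured, that is, they passed the filter on mean signal. Passing it does not by itself place RNA of that lineage in both samples.

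All 10 members passed the filter, on 19 of their 21 probe sets. On the FGF10 array Fst, Acvr1b and Smad3 were at least 1.5-fold higher than on the control array and Gdf3 was at least 1.5-fold lower, while Nodal, Lefty1, Lefty2, Acvr2b, Smad2 and Foxh1 lay within 1.5-fold. Over all measured genes, 5.41% were higher by 1.5-fold or more and 4.86% lower by as much. The 3 higher and 1 lower among 10 genes are to be read against those shares and against the choice of the genes, which was made with results of these arrays known. The members' median log2 ratio was 0.23, against -0.03 over all measured genes, and the members ran from -1.16 to 1.59. At 2-fold, Fst was the 1 member higher and Gdf3 the 1 member lower, where 1.32% and 1.29% of all genes lay. Because each sample is a mixture of cells, more cells that express a gene and more of its RNA per cell cannot be told apart.

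**Figure D1:**
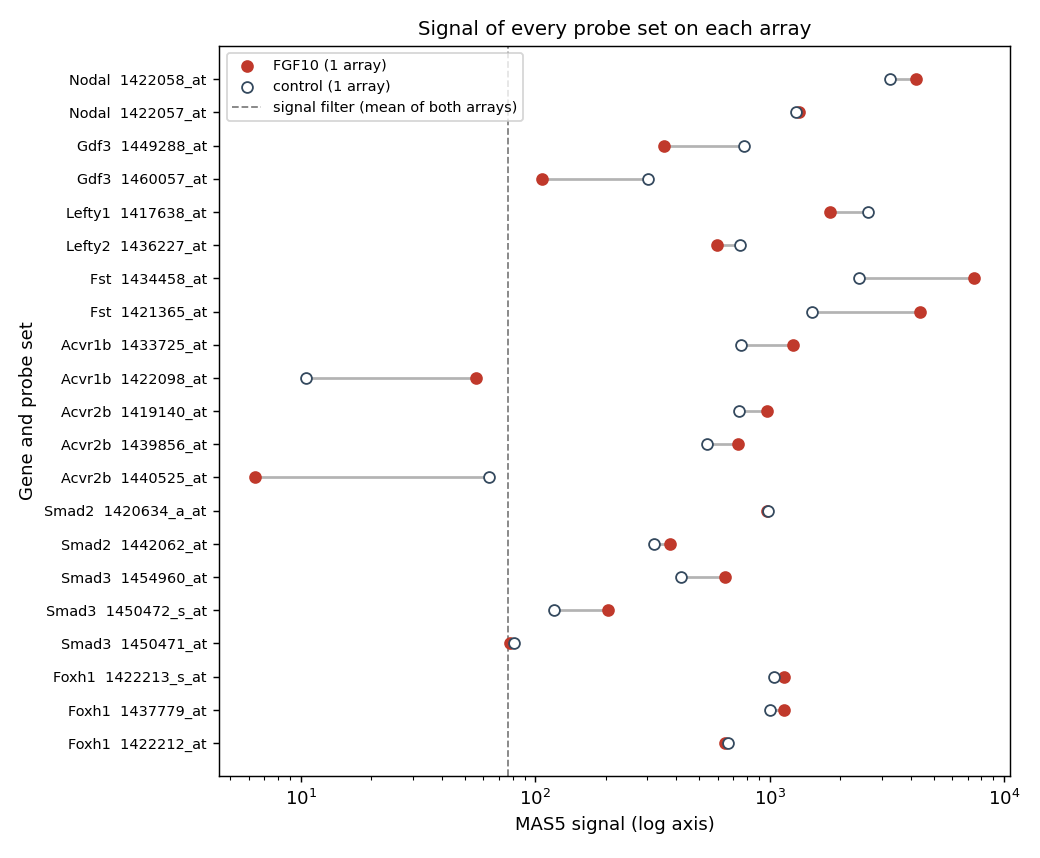
MAS5 signal (horizontal log axis) of every probe set of the 10 genes on the FGF10 array (filled) and the control array (open), 1 array each, joined by a line; the dashed line is the filter of 76.35. Fst was brighter on the FGF10 array on both of its probe sets and Gdf3 dimmer on both, and the widest gaps to the left of the dashed line belong to probe sets too dim to be kept.

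Among the ligands, Gdf3 was lower and Nodal close to equal. Gdf3 is a TGF-beta family ligand of the early epiblast that can signal through the receptors used by Nodal and is known as a stem cell marker. Its signal was 354.6 on the FGF10 array and 775.6 on the control array (probe set 1449288_at), 2.24-fold lower with FGF10 at a log2 ratio of -1.16. Its other probe set (1460057_at) had 106.4 on the FGF10 array and 302.5 on the control array, a log2 ratio of -1.54. Both probe sets thus placed Gdf3 lower on the FGF10 array, and 94 of the 11122 genes (0.845%) had a ratio as low as its brighter one. The ratios of its probe sets differed by less than the distance of either from 0, with an SD of 0.27 between the pair.

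Nodal, the ligand that gives the pathway its name, had a signal of 4213.8 on the FGF10 array and 3249.4 on the control array on its brighter probe set (1422058_at), a log2 ratio of 0.34. On its other probe set (1422057_at) the signals were 1337.8 on the FGF10 array and 1290.7 on the control array, a log2 ratio of 0.02. The probe sets therefore disagreed on whether Nodal differed between the arrays at all, and neither reached 1.5-fold. The brighter ratio was 1.27-fold, and 13.6% of all measured genes were as high; among the 2225 genes in the same signal bin, whose median was -0.12, 4.22% were. The technical SD in that bin was 0.119, and the SD between the log2 ratios of the Nodal probe sets was 0.23.

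The secreted inhibitors did not move together. Fst encodes follistatin, which binds activin and keeps it from its receptors. Its brighter probe set (1434458_at) had a signal of 7454.6 on the FGF10 array and 2414.3 on the control array, 3.02-fold higher with FGF10 (log2 ratio 1.59). The other one (1421365_at) had 4372.8 on the FGF10 array and 1518.1 on the control array, a log2 ratio of 1.49. The probe sets of Fst differed by little from each other (SD 0.07) beside the size of the ratio, and 43 of 11122 genes (0.387%) were as high. Among the 2225 genes of the brightest bin the share as high was 0.0899%.

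Lefty1 and Lefty2, paralogs that both lie on chromosome 1 that antagonise Nodal, were both lower on the FGF10 array without passing 1.5-fold. Lefty1 (1417638_at) had a signal of 1803.4 on the FGF10 array and 2620.4 on the control array, a log2 ratio of -0.57 or 1.49-fold lower with FGF10. It lay just inside the 1.5-fold limit, and 1.39% of genes in its signal bin were as low, where the technical SD was 0.119. Lefty2 (1436227_at) had 597.1 on the FGF10 array and 744.6 on the control array, a log2 ratio of -0.35, and 10.1% of genes in its bin were as low. Each Lefty gene was read by 1 probe set, so no other probe set checks either value. Neither probe set is of the kind marked as shared between transcripts.

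Visceral endoderm, the extraembryonic layer of embryoid bodies, is another known site of Lefty1 expression. Of its 10 markers 6 were at least 1.5-fold lower on the FGF10 array, where 4.86% of all measured genes were, and 1, Gata6, was higher. The median log2 ratio of the 10 markers was -0.61. Their summed signal was 9996.9 on the FGF10 array and 15710.7 on the control array, and no marker was at 0. Ttr, which encodes a carrier of thyroid hormone and retinol, had 2143.2 on the FGF10 array and 3244.0 on the control array, a log2 ratio of -0.63. The 4 kept probe sets of Ttr ran from -0.89 to -0.53, the last of these within 1.5-fold. The other 5 lower ones were Apoa1 (-1.27), Rhox5 (-1.03), Hnf4a (-0.90, with 0.15 on another kept probe set), Cubn (-0.76) and Dab2 (-0.59, with -0.55 on another). Within 1.5-fold were Amn (-0.55), Gata4 (-0.47, with 0.29 on its other kept probe set) and Afp (-0.15, kept probe sets from -0.24 to 0.18). The part of these markers in the Lefty1 ratio was not tested. Among epiblast markers, Utf1 was lower alongside Gdf3, with 2589.8 on the FGF10 array and 4192.4 on the control array (log2 ratio -0.73). The other 7 were within 1.5-fold on their brightest kept probe sets. Dnmt3b had a negative ratio (-0.50), with 19016.6 on the FGF10 array and 26292.9 on the control array. Its other kept probe set was at -0.04. Sox2 was at -0.0026, and Pou5f1 (0.07), Fgf5 (0.19), Otx2 (0.20), Nanog (0.22) and Sall4 (0.26) had positive ratios. On their other kept probe sets Fgf5 was at 0.36 and Sall4, past 1.5-fold, at 0.67.

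**Figure D2:**
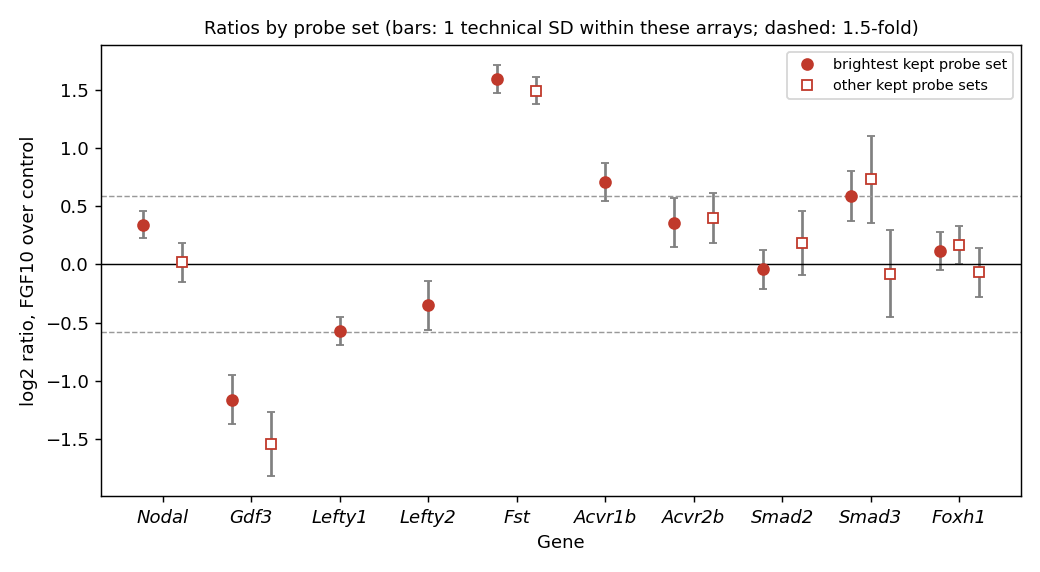
Log2 ratio of FGF10 over control (vertical axis) for the 19 kept probe sets, by gene; filled circles are each gene's brightest kept probe set, open squares its others, bars 1 technical SD for the probe set's signal bin, and dashed lines 1.5-fold. Fst (1.49 and 1.59) and Gdf3 (-1.54 and -1.16) stand outside the dashed lines on every kept probe set, while the 3 kept probe sets of Smad3 run from -0.08 to 0.73.

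Both receptors had positive ratios. Acvr1b encodes an activin type I receptor, the kinase that phosphorylates Smad2 and Smad3. Its kept probe set (1433725_at) had a signal of 1262.4 on the FGF10 array and 755.1 on the control array, 1.63-fold higher with FGF10 (log2 ratio 0.71). Of all measured genes 3.43% were as high, and in its own signal bin 1.48%, where the technical SD was 0.165. The other Acvr1b probe set (1422098_at) had only 55.7 on the FGF10 array and 10.5 on the control array, both under the filter. With both signals that dim, neither the direction nor the size of its ratio can be read.

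Acvr2b encodes an activin type II receptor, which binds the ligand and activates the type I partner. Its kept probe sets gave 973.0 on the FGF10 array and 740.6 on the control array (1419140_at, log2 ratio 0.36), and 731.0 on the FGF10 array and 541.5 on the control array (1439856_at, log2 ratio 0.40). The pair differed little (SD 0.03) and stayed within 1.5-fold, at a size that 12.6% of all genes reached. A further probe set (1440525_at) was under the filter at 6.4 on the FGF10 array and 63.5 on the control array, so it pointed the other way at signals too dim for a ratio to be read.

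The intracellular members were Smad2, Smad3 and Foxh1. Smad3 was the 1 of these past 1.5-fold, and only narrowly: its brightest probe set (1454960_at) had 642.2 on the FGF10 array and 417.8 on the control array, a log2 ratio of 0.59 against a limit of 0.585. A dimmer one (1450472_s_at) had 204.7 on the FGF10 array and 120.6 on the control array (0.73), and the dimmest (1450471_at), just over the filter, had 78.2 on the FGF10 array and 80.8 on the control array (-0.08). The kept probe sets of Smad3 thus disagreed in sign, and their mean of 0.41 (SD 0.43, 3 probe sets) was within 1.5-fold. Smad3 was also within 1.5-fold after quantile (0.55) or loess (0.54) normalization and with an offset added to the signals (0.56), so that under these settings Fst and Acvr1b were the members called higher. Of all measured genes 5.4% had a ratio as high as that of its brightest probe set.

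Smad2, the closest relative of Smad3 in the pathway, had 978.0 on the FGF10 array and 983.8 on the control array on its brighter probe set (1420634_a_at, log2 ratio -0.04). On its other probe set (1442062_at) it had 374.0 on the FGF10 array and 322.2 on the control array, a log2 ratio of 0.18. The sign of its ratio changed between probe sets, and both ratios were within 1 technical SD of 0. Foxh1, the forkhead factor that brings Smad2 and Smad3 to Nodal target genes, had 1154.1 on the FGF10 array and 1040.8 on the control array on its brightest probe set (1422213_s_at), a log2 ratio of 0.11. Its 3 kept probe sets ran from -0.07 to 0.17, and both ends were within 1.5-fold.

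Over the 7 members with at least 2 kept probe sets, the sign was shared in 4, Nodal, Gdf3, Fst and Acvr2b, and differed in Smad2, Smad3 and Foxh1. Across the array 5213 measured genes had 2 or more kept probe sets, and 65.7% of them had 1 sign on the brightest pair. That share is not of the same measure, since the members were judged on all their kept probe sets. On the brightest pair alone, Smad3 (0.59 and 0.73) and Foxh1 (0.11 and 0.17) also shared a sign, and only Smad2 did not. Of the 19 kept probe sets 5 were at least 1.5-fold higher and 2 lower, where 7.03% and 4.71% of all kept probe sets on the array were. Thus both Gdf3 probe sets, both of Fst, 1 of Acvr1b and 2 of Smad3 carried the calls. The plot of ratio against signal shows that large ratios were commoner among dim genes: in the dimmest signal bin 10.4% of genes were past 1.5-fold upward and 14.2% downward, and in the brightest bin, which holds Fst, Nodal and Lefty1, 0.899% were past it upward and 1.3% downward.

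**Figure D3:**
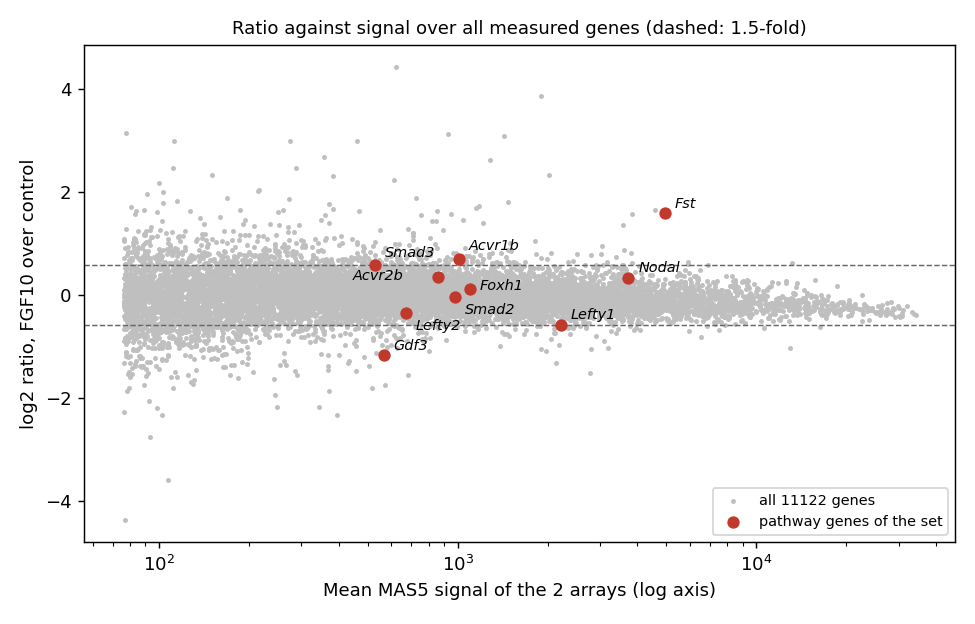
Log2 ratio of FGF10 over control (vertical axis) against mean MAS5 signal of both arrays (horizontal log axis) for all 11122 measured genes (grey) and the 10 members (red, named); dashed lines mark 1.5-fold. The grey cloud narrows as signal rises and its median in the brightest signal bin is -0.12, and Fst stands above the cloud and Gdf3 at its lower edge.

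Promoter sequences from RefSeq (GRCm38.p6) were at hand for 4 of the 10 members, Nodal, Acvr1b, Acvr2b and Smad3. The 250 bases before the annotated start are shown for Acvr1b and Smad3, both called higher, and for Nodal, which was not, because their base composition differs. They are Acvr1b at chr15:101173822-101174071 on the plus strand, Smad3 at chr9:63757995-63758244 on the minus strand and Nodal at chr10:61417722-61417971 on the plus strand. Capitals mark GGGCGG, the core of the GC box, or its reverse complement, and in Nodal the CCAAT box.
Acvr1b: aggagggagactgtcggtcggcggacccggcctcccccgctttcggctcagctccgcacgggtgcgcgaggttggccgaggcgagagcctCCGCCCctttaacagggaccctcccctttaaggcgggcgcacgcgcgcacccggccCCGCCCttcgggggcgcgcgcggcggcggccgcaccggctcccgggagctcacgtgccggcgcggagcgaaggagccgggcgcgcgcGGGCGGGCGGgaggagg
Smad3: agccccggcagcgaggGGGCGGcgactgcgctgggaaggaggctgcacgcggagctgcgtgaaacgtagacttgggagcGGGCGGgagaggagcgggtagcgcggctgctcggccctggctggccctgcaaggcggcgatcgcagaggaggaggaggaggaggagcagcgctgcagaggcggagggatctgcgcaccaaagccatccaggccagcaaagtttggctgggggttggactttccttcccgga
Nodal: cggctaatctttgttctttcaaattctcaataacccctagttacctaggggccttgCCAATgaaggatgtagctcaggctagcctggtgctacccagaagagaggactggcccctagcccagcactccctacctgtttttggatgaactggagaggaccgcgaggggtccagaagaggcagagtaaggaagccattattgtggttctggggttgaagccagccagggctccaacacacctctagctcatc
The Acvr1b stretch was 78.8% G or C with 42 CpG pairs and held GGGCGG at 4 places on either strand, of which a pair overlap. The Smad3 stretch was 69.2% G or C with 22 CpG pairs and 2 GGGCGG matches. The Acvr2b stretch, which is not printed, was 72.8% G or C with 24 CpG pairs and 3 GGGCGG matches. Acvr2b was within 1.5-fold (0.36), so a stretch rich in G and C was not limited to genes called higher. The Nodal stretch was 53.2% G or C with 3 CpG pairs, no GGGCGG and 1 CCAAT, where the medians over the table's promoters were 52.4% and 6 CpG pairs. Of all 32851 such stretches, 32.7% held GGGCGG and 33.8% CCAAT on either strand, and 0.865% had as many CpG pairs as Acvr1b. The letters AATNNACA, a form of the Foxh1 site, and GTCTAGAC, the palindromic Smad-binding element, were searched on both strands, with no overlap between them. Neither was in these windows of the 4 members, while 10.9% and 0.167% of all stretches held them. These are matches of letters and say nothing of binding.

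The rest of the pathway was covered by a list of 44 other genes, of which 32 were measured, 3 had no probe set named for them alone and 9 lay under the filter. Of the 32, 8 were at least 1.5-fold higher on the FGF10 array, 0 were lower by as much, and the list had a median log2 ratio of 0.19. Of those 8, 6 were target genes, so that without the targets 2 of 26 were past 1.5-fold upward and 0 downward, and the median was 0.10. Both counts, 8 of 32 and 2 of 26, are to be read against all 11122 measured genes. Of those, 5.41% passed the same limit on the higher side and 4.86% on the lower side. The list was drawn up with earlier results of these arrays known, and its targets in particular are no independent evidence.

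Co-receptors and receptors were mostly near equal. Tgfbr3, the betaglycan co-receptor that presents TGF-beta and inhibin, was the exception, with 1130.3 on the FGF10 array and 376.3 on the control array (log2 ratio 1.55) and 0.98 on its other kept probe set. Tdgf1, which encodes Cripto, the co-receptor that Nodal needs, had 15020.8 on the FGF10 array and 14632.4 on the control array, a log2 ratio of 0.0035. Its paralog Cfc1 was at 0.45 with dim signals of 242.0 on the FGF10 array and 172.4 on the control array. The type I receptor genes Acvr1 (0.20) and Tgfbr1 (0.06) and the type II receptor genes Acvr2a (0.17) and Tgfbr2 (0.23) all stayed within 1.5-fold, and the kept probe sets of Tgfbr1 ran from -0.36 to 0.50.

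Of the inhibitors outside the cell, Cer1, which binds Nodal and is made by anterior endoderm, had 490.7 on the FGF10 array and 60.6 on the control array (log2 ratio 2.98). Its control signal was under 76.35, and with that signal raised to 76.35 the ratio was 2.65. The other kept probe set of Cer1 was at 5.03, so both were higher but the size of the ratio is uncertain. Fstl1 (0.02), a secreted relative of follistatin, Bambi (-0.08), a receptor-like inhibitor, and Tmeff1 (0.07), which can block Cripto, were near 0 on their brightest probe sets, though Tmeff1 was at 0.51 on its other one. Hence Fst and Cer1 were higher on the FGF10 array, whereas Lefty1 and Lefty2 had negative ratios within 1.5-fold. The convertase genes Furin (0.03) and Pcsk6 (-0.42), whose products cut the Nodal precursor, lay within 1.5-fold.

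Other ligands were mostly too dim to measure. Tgfb1 had 169.0 on the FGF10 array and 143.1 on the control array (0.21). The activin subunit gene Inhba, read here because Fst binds its product and chosen after its values were seen, had 33.1 on the FGF10 array and 48.8 on the control array on its brighter probe set, and Inhbb had 40.2 on the FGF10 array and 24.8 on the control array. Both lie under the filter, so a difference in activin subunit RNA was not detectable on these arrays.

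All 12 genes for Smad4 and for regulators of the Smads were measured and 0 passed 1.5-fold in either direction. They included Smad4, the common partner of Smad2 and Smad3 (0.18, and up to 0.47 on its other probe sets), Skil, a repressor of Smad-driven transcription (-0.18), Tgif1, another such repressor (0.23), and Trim33, a chromatin-linked partner of Smad2 and Smad3 (0.04, and 0.53 on its other kept probe set). Smad7, an inhibitory Smad that TGF-beta signals commonly induce, was at -0.01, with -0.30 on its other probe set. Pmepa1, a feedback inhibitor likewise induced by TGF-beta signals, had 734.0 on the FGF10 array and 481.9 on the control array (0.57), and it lay nearest to the limit. Smad7 and Pmepa1 were picked out after their values were seen.

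All 6 measured genes of the target list, Mixl1 (log2 ratio 3.87), Foxa2 (3.10), Gsc (2.46), Lhx1 (2.23), Eomes (1.58) and Sox17 (0.68), were at least 1.5-fold higher on the FGF10 array. They encode transcription factors of the primitive streak, mesoderm and endoderm that Nodal signals are known to induce, though Wnt and other signals act on them too. Their ratios overlapped those of the signalling genes: Cer1 (2.98), Fst (1.59) and Tgfbr3 (1.55) were above Sox17, as was Acvr1b (0.71), whereas Smad3 (0.59) was below it, and Nodal (0.34), Tdgf1 (0.0035), Foxh1 (0.11), Smad2 (-0.04) and Smad4 (0.18) were within 1.5-fold. Gdf3 (-1.16) was the gene past 1.5-fold downward among the members and the 32 others. The target list left out feedback genes that Nodal or TGF-beta signals induce, which were listed under other roles. Of these, Lefty1 (-0.57), Lefty2 (-0.35), Smad7 (-0.01), Nodal (0.34) and Pmepa1 (0.57) were within 1.5-fold. That is not true of every inhibitor listed under other roles, since Cer1 (2.98) and Fst (1.59) were past it upward.

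**Figure D4:**
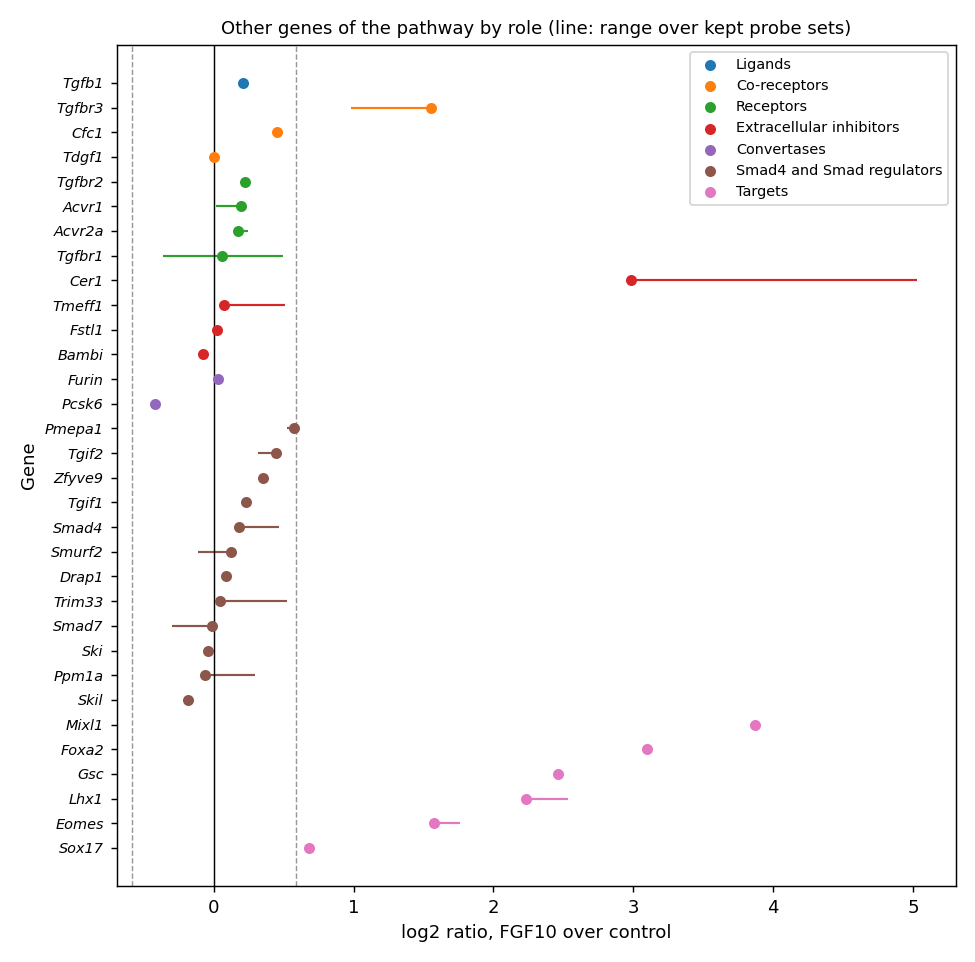
Log2 ratio of FGF10 over control (horizontal axis) for the 32 measured other genes of the pathway, coloured by role and ordered by ratio within a role; points are the brightest kept probe set, lines the range over kept probe sets, and dashed lines 1.5-fold. The 6 targets, Cer1 and Tgfbr3 lie to the right of the upper dashed line, and no gene lies to the left of the lower one.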

How the data were processed

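RNA from 2 embryoid body samples, 1 per group, was labelled with biotin and hybridised to 1 Affymetrix array each. The deposited values are linear MAS5 signal per probe set, as named in the submitters' processing notes, which give no version or settings. In both columns the mean without the lowest and highest 2% was 500.003, the form left by scaling arrays to a common target, so ratios are relative to the rest of the array and a change in total RNA is not seen. Median signals were 78.3 on the FGF10 array and 75.9 on the control array. The number of arrays limits the precision.

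Of 45101 probe sets, 64 chip controls were left out, and probe sets at or above the median mean signal (76.35) were kept (22524). The log2 ratio had no offset and was centred on the median of kept probe sets. Genes were named from the platform annotation, with all 10 members found by gene identifier in the GRCm38.p6 table. Technical SD was estimated, within each of 5 signal bins, from how far the ratios of a gene's brightest pair of kept probe sets lay apart (the SD of that difference over root 2). No test was possible, and fold limits of 1.5 and 2 were used, with Python 3.11.15, pandas 2.3.3 and statsmodels 0.14.6. The procedure was tested on simulated data.

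The members and lists were chosen with earlier results of these data known. Named genes are all members, other pathway genes past 1.5-fold and up to 4 brightest others of each role, and exceptions are stated. Markers have no such rule, and those named were chosen after their values were seen. No genes of like pattern are named, since 2 arrays give 1 ratio per gene. The alternatives tried were centring, quantile and loess normalization, an offset, 3 signal filters, 2 other choices of probe set, leaving out _x_at and _s_at probe sets, raising dim signals, a 2-fold limit and the mean over genes.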

Additional observations from a re-analysis of the deposited data

How the results depend on the processing

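The direction of Fst, Gdf3, Acvr1b, Acvr2b, Lefty1, Lefty2, Nodal, Smad3 and Foxh1 was the same under all 11 settings tried for single genes. Smad2 changed sign with the mean over probe sets and with the second brightest probe set (-0.06 to 0.18). The ranges of Nodal (0.02 to 0.42) and Foxh1 (0.07 to 0.17) included values close to 0. No setting took the dimmest kept probe set of Smad3 (-0.08) or of Foxh1 (-0.07) alone, and both are negative. Fst (1.49 to 1.69), Gdf3 (-1.54 to -1.12) and Acvr1b (0.69 to 0.74) stayed past 1.5-fold in all 11, and Lefty1 (-0.57 to -0.53) stayed within it. Acvr1b, Lefty1 and Lefty2 each had 1 kept probe set, so the settings that change the probe set chosen could not alter their values. Raising dim signals could not alter them either. Smad3 (0.41 to 0.73) fell short of 1.5-fold in 4 settings, which left 2 members higher. With a 2-fold limit 1 member was higher. The members' median log2 ratio ran from 0.12 to 0.26. In the list of other pathway genes 7 to 11 were higher. Without a signal filter 11 of 41 were higher and 2 lower, where 13.8% of all genes were higher and 15.9% lower, against 5.41% and 4.86% with the filter. The mean over that list was 0.66 against a median of 0.19, and the list's highest gene was at 3.87 and its lowest at -0.42. No paired analysis was possible because each group had 1 array. Probe sets under the filter, among them 1 of Acvr1b and 1 of Acvr2b, give no usable ratio at these signals.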
